A study of Rattus norvegicus with 16 samples.

Results

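The catalytic subunits of the main cytosolic serine/threonine phosphatases were described in rat kidney, namely Ppp1ca, Ppp1cb and Ppp1cc of protein phosphatase 1 (PP1) and Ppp2ca and Ppp2cb of protein phosphatase 2A (PP2A). Members were all probe sets that the array annotation assigns to one of these symbols alone. There were 5 such probe sets of 8740, and they stood for 4 of the 5 genes, out of 4736 genes with a probe set of their own. Ppp2ca had no probe set of its own, because the 2 probe sets that list it also list Ppp2cal1. These 2 are given by their probe set names and are not counted as members. All 5 member probe sets passed the filter on dim signal. The genes were chosen by the measured differences of Ppp1cb and Ppp1cc for DEX over saline and ACTH over DEX. Member values in the hormone comparisons, and the changes of ACTH, DEX and saline rats that make them up, are therefore a description, with no test.

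PP1 and PP2A remove phosphate from serine and threonine and so oppose protein kinases, among them protein kinase A. A catalytic subunit binds 1 of many regulatory proteins, which set where it acts and on what. PP1 is best known for switching glycogen metabolism towards storage and for relaxing smooth muscle by dephosphorylating myosin light chain. PP2A works as a catalytic subunit on a scaffold with an exchangeable regulatory subunit, and it acts on many signalling kinases.

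Each of 8 rats gave 2 arrays, 1 per kidney. Rats 1 and 5 were given ACTH (adrenocorticotropic hormone, the pituitary peptide that drives adrenal steroid output) to the right kidney. Rats 3 and 7 were given DEX, and rats 2, 4, 6 and 8 were given saline. The left kidney of an animal served as its control. The labels do not spell out DEX, and strain, sex, age, dose, route and duration are not given there, so it is not known whether a hormone also reached the left kidney. The sample titles give 4 saline rats and the series description 2. The titles were followed. In whole kidney RNA, fewer cells of a type and less RNA per cell cannot be told apart.

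Signal is an intensity on a linear scale as deposited. A change is the right minus left difference of 1 rat in log2(signal + 16), and an effect is the change in hormone rats minus that in saline rats. Signals of different probe sets have no common scale and are not compared as levels of the genes. Kidney tubule markers varied in signal: the phosphate transporter Slc34a1 had 4343 to 6318, uromodulin (Umod) 1756 to 3260 and the water channel Aqp2 869 to 2250. Others were dimmer, with Scnn1a at 221 to 419 and Slc12a1 at 53.0 to 239. Before any hormone is considered, the first principal component, with 45.7% of the variance, parted the 16 arrays into 2 sets with no name in the labels: all kidneys of rats 1 to 4, and all of rats 5 to 8. Each set holds 1 ACTH, 1 DEX and 2 saline rats.

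The promoters of the pair of genes whose values moved together are shown, as the 250 bases before the annotated start, 5′ to 3′ on the gene's strand, from RefSeq (GRCr8). Capitals mark a cAMP response half-site (TGACG, either strand), searched because ACTH signals through cAMP. Ppp1cb lies at chr6:29712836-29713085 on the minus strand and Ppp1cc at chr12:40061302-40061551 on the minus strand.
Ppp1cb: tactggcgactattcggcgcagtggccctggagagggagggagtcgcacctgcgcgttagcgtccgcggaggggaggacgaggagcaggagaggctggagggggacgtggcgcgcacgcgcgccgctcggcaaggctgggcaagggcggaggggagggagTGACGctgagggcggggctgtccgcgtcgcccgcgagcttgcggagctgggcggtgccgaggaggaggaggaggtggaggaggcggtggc
Ppp1cc: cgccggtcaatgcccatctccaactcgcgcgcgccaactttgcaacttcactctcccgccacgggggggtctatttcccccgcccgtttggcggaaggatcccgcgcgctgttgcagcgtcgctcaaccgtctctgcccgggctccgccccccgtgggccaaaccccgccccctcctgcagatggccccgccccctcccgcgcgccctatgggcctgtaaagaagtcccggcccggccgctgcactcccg
The Ppp1cb window held 1 cAMP half-site, 90 bases before the start, and the Ppp1cc window held 0. Of 33469 rat promoter windows of this length, 18.2% held the letters on either strand. The glucocorticoid receptor half-site AGAACA was in neither window and in 17.5% of all windows. G and C made up 73.6% of the Ppp1cb window and 71.2% of the Ppp1cc window, against a median of 51.2% over all windows. A match is a run of letters and not a site shown to be bound. The table held promoters for 4 of the 5 genes. That of Ppp1ca had 0 cAMP half-sites and that of Ppp2ca had 3, counting both strands of an overlapping pair.

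Ppp1cb encodes the beta catalytic subunit of PP1, the form that works with the myosin-targeting subunit in myosin phosphatase. On its brighter probe set, S78218_at, signal was 363 in the right and 435 in the left kidney of ACTH rat 1, and 99.8 in the right and 216 in the left kidney of ACTH rat 5. In DEX rats 3 and 7 it was 449.9 and 242 on the right, against 177 and 169 on the left. In saline rats 2, 4, 6 and 8 it was 371, 379.9, 170.5 and 178 on the right, against 415, 409.8, 172 and 198 on the left. The right kidney was thus lower than the left in both ACTH rats and in all 4 saline rats, and higher than the left in both DEX rats. The changes were −0.25 and −1.01 in the ACTH rats, 1.28 and 0.48 in the DEX rats, and −0.16 to −0.01 in the saline rats, so neither hormone's rats overlapped the saline rats.

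The ACTH effect on S78218_at was −0.52 ± 0.24 (SE of the fit, 2 ACTH and 4 saline rats) and the DEX effect was 0.98 ± 0.24, or 1.98-fold on the scale of signal + 16. ACTH minus DEX was −1.51 ± 0.28 (2 rats each). Within rats 1 to 4 the 3 differences were −0.12, 1.41 and −1.52, and within rats 5 to 8 they were −0.93, 0.56 and −1.49, in the same order. The ACTH effect lay mostly in rat 5, with −0.14 when rat 5 was left out and −0.90 when rat 1 was left out. The DEX effect lay more in rat 3, with 0.59 when rat 3 was left out and 1.38 when rat 7 was left out.

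The dimmer Ppp1cb probe set, S78218_g_at, has the same accession in its name. Its signal was 124 and 30.2 in the right kidneys of ACTH rats 1 and 5, against 119 and 48.1 in their left kidneys. In DEX rats 3 and 7 it was 145 and 51.6 on the right, against 52.5 and 45.8 on the left. Saline right kidneys had 39.4 to 121 and saline left kidneys 39.9 to 121. The ACTH rats changed by 0.06 and −0.47 and lay on either side of the saline rats (−0.19 to 0.05), while both DEX rats, at 1.23 and 0.13, lay above them. The DEX effect was 0.73 ± 0.25 over saline and fell to 0.18 without rat 3. The ACTH effect was −0.15 ± 0.25 and turned to 0.12 without rat 5.

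**Figure D1:**
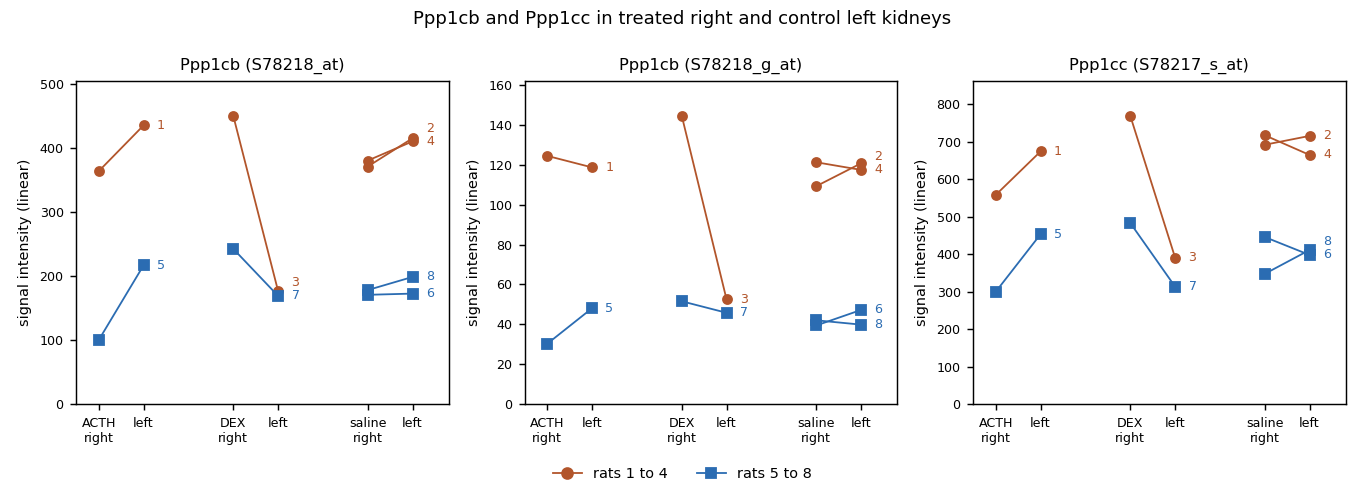
Signal intensity (linear) of both Ppp1cb probe sets and of Ppp1cc in the treated right kidney and the control left kidney of each rat. Each line joins the 2 kidneys of a rat, with its number at the right. Rats 1 to 4 lie above rats 5 to 8, except that the left kidney of DEX rat 3 lies within rats 5 to 8 for S78218_at, at 177, and Ppp1cc, at 391, and just above them for S78218_g_at, at 52.5.

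Ppp1cc encodes the gamma catalytic subunit of PP1, which is widespread and has a testis-rich splice form. Its single probe set had 558 and 299.6 in the right kidneys of ACTH rats 1 and 5, against 674 and 453 in their left kidneys. DEX rats 3 and 7 had 769.6 and 483 on the right, against 391 and 314 on the left. Saline rats 2, 4, 6 and 8 had 692, 717, 446 and 348 on the right, against 716, 665, 398 and 411 on the left. Both ACTH rats were lower on the right and both DEX rats higher on the right, whereas 2 saline rats were higher and 2 lower. The changes were −0.27 and −0.57 with ACTH, 0.95 and 0.60 with DEX, and −0.23 to 0.16 with saline.

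For Ppp1cc the ACTH effect was −0.42 ± 0.19, the DEX effect 0.78 ± 0.19 (1.71-fold) and ACTH minus DEX −1.19 ± 0.21. Within rats 1 to 4 these were −0.30, 0.92 and −1.21, and within rats 5 to 8 −0.53, 0.64 and −1.17. The DEX effect was 0.60 without rat 3 and 0.95 without rat 7, each value then resting on 1 DEX rat. The ACTH effect was −0.26 without rat 5. Across the 8 rats the change of Ppp1cc followed that of Ppp1cb S78218_at with a Pearson r of 0.96, and across the 16 arrays the level did so with 0.96. These are descriptions over the same arrays. Whether PP1 probe sets also read each other's transcripts was not tested.

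Averaged over the rats, much of the DEX difference lay in the left kidneys. For Ppp1cb S78218_at that share came mainly from rat 3, at 177 on the left. Saline rats 2 and 4 of its set had 415 and 409.8 on the left. DEX rat 7 had 169 on the left, beside 172 and 198 in saline rats 6 and 8. On the right DEX rat 7 had 242, beside 170.5 and 178 in the same saline rats. In the right kidneys alone Ppp1cb S78218_at averaged 231 ± 186 with ACTH (SD, n = 2). It averaged 346 ± 147 with DEX (SD, n = 2) and 275 ± 116 with saline (SD, n = 4). The means lay within these SDs of each other, but each SD spans both sets of rats, which differ in level. Within rats 1 to 4 its right kidney values were 363 with ACTH, 371 and 379.9 with saline and 449.9 with DEX. Within rats 5 to 8 its values were 99.8 with ACTH, 170.5 and 178 with saline and 242 with DEX. In the left kidneys it averaged 326 ± 154 in ACTH rats (SD, n = 2), 173 ± 5.47 in DEX rats (SD, n = 2) and 299 ± 131 in saline rats (SD, n = 4). With right kidneys only, the DEX minus saline difference was 0.35 for Ppp1cb and 0.21 for Ppp1cc, and the ACTH minus saline difference −0.38 and −0.35. ACTH minus DEX was then −0.73 for Ppp1cb and −0.56 for Ppp1cc. Each right-only value kept its sign and was smaller in size than the value set against the left kidney.

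**Figure D2:**
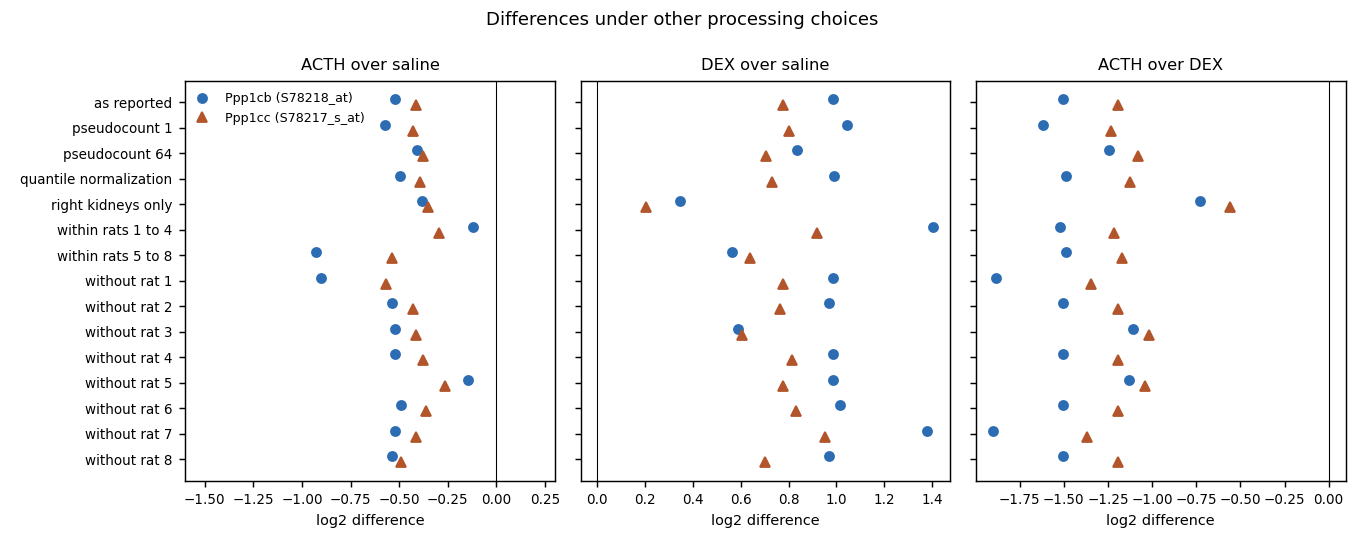
Log2 differences of Ppp1cb (S78218_at, circles) and Ppp1cc (triangles) for the 3 hormone comparisons under other processing choices, within each set of rats and with each rat left out. With right kidneys only the DEX over saline values are 0.35 and 0.21, the lowest shown, and no value in the plot changes sign.

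The left kidney of DEX rat 3 stood out for these genes. The other 7 kidneys of rats 1 to 4 had 363 to 449.9 for Ppp1cb S78218_at, and the 8 kidneys of rats 5 to 8 had 99.8 to 242. The left kidney of rat 3, at 177, lay inside the range of rats 5 to 8, as it did for Ppp1cc at 391, against 558 to 769.6 in its 7 companions and 299.6 to 483 in rats 5 to 8. This pattern, chosen after the values were seen, was shared by 90 of 5244 tested probe sets (1.72%). The same count for each of the other 7 kidneys of rats 1 to 4 ran from 1 to 41. On the first principal component over all probe sets, the left kidney of rat 3 had −11.2, beside −15.3 to −12.0 in its 7 companions and 9.48 to 17.4 in rats 5 to 8.

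The sets of rats also differed in Ppp1cb and Ppp1cc. On the scale of signal + 16, level in rats 1 to 4 over rats 5 to 8 was 1.97-fold for S78218_at, 2.16-fold for S78218_g_at and 1.61-fold for Ppp1cc. For S78218_at, 75 of 5244 probe sets (1.43%) had a higher difference, against 207 (3.95%) for Ppp1cc. Without any hormone the split was the same: saline rats 2 and 4 had 371 to 415 of Ppp1cb S78218_at over both kidneys, and saline rats 6 and 8 had 170.5 to 198. Ppp1ca and Ppp2cb did not follow, at 0.92-fold and 1.05-fold. In level 1 of the 5 members, S78218_g_at, lay wholly above in rats 1 to 4, as did 8.35% of all probe sets. Its mean was 114 in rats 1 to 4 and 43.0 in rats 5 to 8, and the lowest mean signal among tested probe sets was 60.5, so it passed the filter through the set where it is high. Nothing is read from that count. The sets were formed from these same arrays, so this is a description. What separates them is not in the labels, and since each set holds every treatment, the hormone differences above are also given within each set.

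**Figure D3:**
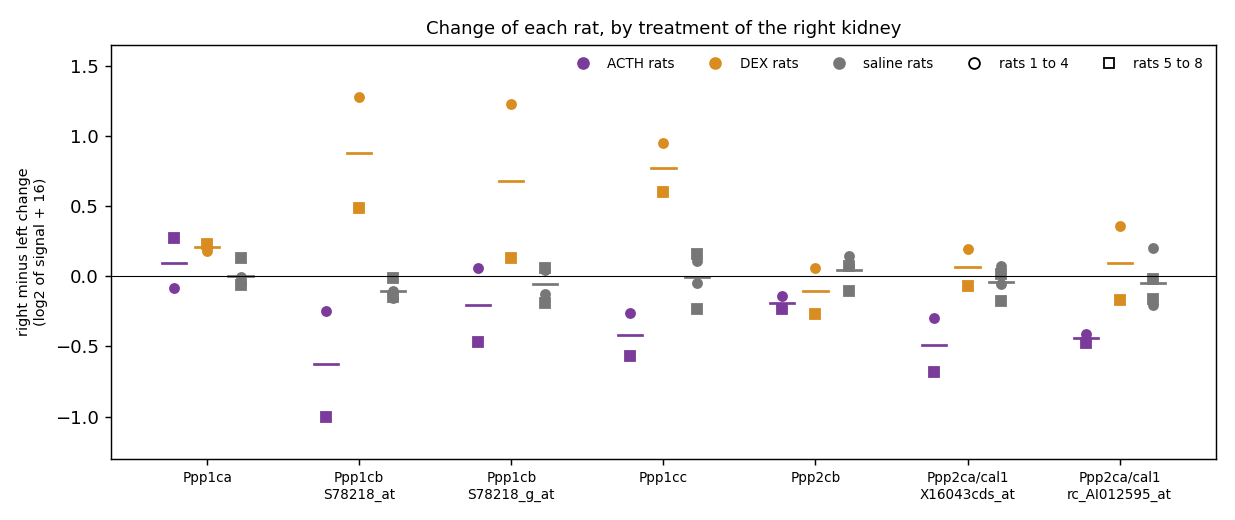
Right minus left change (log2 of signal + 16) of each rat for the 5 member probe sets and the 2 shared Ppp2ca probe sets, by treatment of the right kidney. Points are rats and bars are group means. The DEX rats of Ppp1cb S78218_at, at 1.28 and 0.48, and of Ppp1cc, at 0.95 and 0.60, lie above all saline rats, and the ACTH rats of both lie below them.

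Ppp1ca, the alpha catalytic subunit of PP1, ranged from 719.6 to 1151 over the 16 kidneys. Its signal was 775 and 1151 in the right kidneys of ACTH rats 1 and 5, against 824 and 949 in the left. DEX rats 3 and 7 had 816 and 969 on the right, against 719.6 and 823 on the left. Saline right kidneys had 889 to 970.2 and saline left kidneys 849.9 to 972. The ACTH rats changed in opposite directions, by −0.09 and 0.27, and the effect was 0.09 ± 0.16. The DEX rats, at 0.18 and 0.23, lay above the saline range of −0.06 to 0.13, for an effect of 0.20 ± 0.16. With right kidneys only that effect turned to −0.05.

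Ppp2cb, the beta catalytic subunit of PP2A, stayed within 218 to 305 over all 16 kidneys. The right kidneys had 260.2 and 223 in ACTH rats 1 and 5, against 289 and 265 on the left. DEX rats 3 and 7 had 279 and 251 on the right, against 267 and 305 on the left. Saline right kidneys had 231 to 263 and saline left kidneys 218 to 262. Both ACTH rats, at −0.14 and −0.24, lay below the saline rats (−0.10 to 0.14). The ACTH effect was −0.23 ± 0.16 and the DEX effect −0.15 ± 0.16.

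The 2 probe sets shared by Ppp2ca, the alpha catalytic subunit of PP2A, and Ppp2cal1 cannot be given to either gene. X16043cds_at had 561 and 287 in ACTH right kidneys, against 693 and 469.7 on the left of the same rats, with changes of −0.30 and −0.68. rc_AI012595_at had 372 and 306 on the right, against 499.5 and 431 on the left, with changes of −0.41 and −0.48. Both ACTH rats lay below all saline rats on both probe sets, and the ACTH effects were −0.45 ± 0.18 and −0.40 ± 0.19. The DEX rats, at 0.19 and −0.07 for X16043cds_at and at 0.36 and −0.17 for rc_AI012595_at, changed in opposite directions, with effects of 0.10 ± 0.18 and 0.14 ± 0.19. In level X16043cds_at lay wholly above in rats 1 to 4 (506 to 693, against 287 to 469.7 in rats 5 to 8), as did 8.35% of all tested probe sets. Of the 5244, 295 (5.63%) had a higher difference between the sets of rats. The levels of rc_AI012595_at overlapped between the sets.

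**Figure D4:**
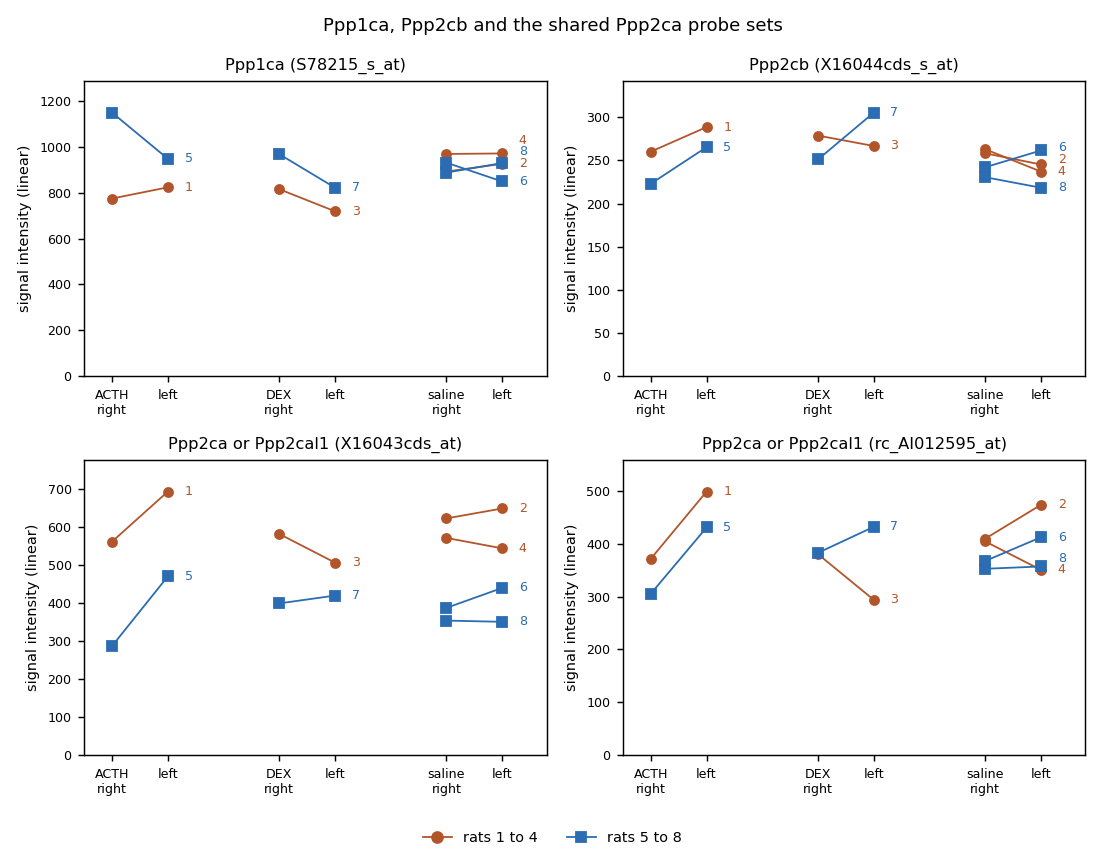
Signal intensity (linear) of Ppp1ca, Ppp2cb and the 2 probe sets that list both Ppp2ca and Ppp2cal1, in the treated right and control left kidney of each rat. Lines join the kidneys of a rat. Ppp2cb keeps between 218 and 305 in all kidneys, and both shared probe sets are lower on the right in ACTH rats 1 and 5.

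Across the 5 members, the change of both ACTH rats lay below all saline rats in 3 probe sets, as it did in 7.84% of all tested probe sets. The change of both DEX rats lay above all saline rats in 4, against 6.08%. ACTH below and DEX above held together for 2 probe sets, Ppp1cb S78218_at and Ppp1cc, against 0.515%. The opposite patterns, ACTH above and DEX below, each held for 0 of 5 members, against 7.82% and 6.33%. The choice of genes used these comparisons, so nothing is read from the counts. The 3 hormone comparisons share rats, and their values for a gene are not independent of each other.

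Right over left in saline rats is a term of the DEX over saline difference that chose the genes, so it too is given with no test. Ppp1cb S78218_at had −0.11 ± 0.14, Ppp1cb S78218_g_at −0.06 ± 0.15, Ppp1cc 0.00 ± 0.11, Ppp1ca 0.00 ± 0.09 and Ppp2cb 0.04 ± 0.09 (SE of the fit, 4 saline rats). That SE rests on a spread shared by the rats of all treatments and drawn towards that of other probe sets. It is not the spread of the saline rats alone. Over all 5244 probe sets, 0% passed in limma, with 3.74% at an unadjusted p under 0.05. The changes in single saline rats ran from −0.16 to −0.01 for Ppp1cb S78218_at and from −0.19 to 0.05 for S78218_g_at.

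Markers of other cell types moved in the same kidneys. The summed signal of the fat markers, of which 7 of 9 are on the array, was 11380 and 1579 in the right kidneys of ACTH rats 1 and 5, against 3100 and 1020 on the left. It was 1151 and 876 on the right of DEX rats 3 and 7, against 2186 and 2200 on the left. Saline right kidneys had 944 to 1457 and saline left kidneys 857 to 3698, and no fat marker was at 0 (the brown fat protein Ucp1 had 44.6 to 1119). The sum is weighted to bright probe sets: over all kidneys Scd alone ran from 29.4 to 6416 and Lep from 315 to 972. Saline rat 6 had the same tilt of the summed fat markers as the DEX rats, 1157 on the right and 3698 on the left. The 3 erythrocyte genes summed to 7403 and 7782 on the right of ACTH rats 1 and 5, against 8768 and 4648 on the left, so these rats differed in direction. They summed to 4675 and 4396 on the right of DEX rats 3 and 7, against 6148 and 7381 on the left. Saline right kidneys had 3762 to 6387 and saline left kidneys 2522 to 9017, with the highest in rat 6. Smooth muscle markers, 6 of 6 on the array, summed to 1239 to 1318 with ACTH, 999 to 1080 with DEX and 843 to 960.0 with saline on the right. On the left they summed to 836 to 1151 over all 8 rats. Leukocyte markers summed to 787 and 1935 on the right of ACTH rats 1 and 5, against 1251 and 2206 on the left. In DEX rats 3 and 7 they summed to 2008 and 1728 on the right, against 2228 and 1950 on the left. Saline right kidneys had 1411 to 1875 and saline left kidneys 1206 to 1795. Cd74 alone ran from 488 to 1870 over all kidneys. On the right the 4 adrenal cortex genes summed to 273 to 299 with ACTH, 257 to 299 with DEX and 249 to 323 with saline. For right over left in ACTH rats, the tubule marker Calb1 (0.77), Tagln of smooth muscle (0.60) and Ccl5 of leukocytes (−0.84) passed in limma. So did 3.57% of all probe sets. For ACTH over DEX the fat markers Ucp1 (3.27), Fabp4 (3.05) and Cfd (2.48) passed, as did 0.572% of all probe sets. The part of these markers in the phosphatase values was not tested.

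The partners of the catalytic subunits were read from 6 lists with 139 entries, of which 61 were on the array and 45 were tested, 1 probe set per gene. In limma 0 of 45 genes passed in any of the 6 comparisons, against 0.496% of all probe sets for ACTH over saline, 0% for DEX over saline, 0.572% for ACTH over DEX, 3.57% for right over left in ACTH rats and 0% for right over left in DEX rats. At an unadjusted p under 0.05 there were 5 genes for ACTH over saline (9.44% of all probe sets), 1 for DEX over saline (2.94%) and 3 for ACTH over DEX (12.2%). For right over left there were 6 in ACTH rats (18.4%), 0 in DEX rats (5.91%) and 1 in saline rats (3.74%). The median effect over the 45 genes was 0.01 for ACTH and 0.03 for DEX, beside 0.00 for both over all probe sets.

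Among regulatory subunits and inhibitors of PP1, 5 of 10 had positive and 5 negative ACTH effects, and 7 of 10 had positive DEX effects. Mean signal served only to pick 3 genes of each list to name, and it does not rank the genes' levels. Named here were inhibitor 1, Ppp1r1a, which blocks PP1 once protein kinase A has phosphorylated it, at 0.00 for ACTH and 0.17 for DEX, the actin-binding PP1 partner Phactr4 at −0.18 and 0.08, and the membrane-anchored targeting subunit Ppp1r16b at −0.28 and −0.04. A second Ppp1r1a probe set had 0.03 and 0.08. The PP2A list had 4 positive and 5 negative values for each hormone. Its B56 subunit Ppp2r5a had 0.06 and 0.11, the scaffold Ppp2r1a 0.13 and 0.05 (0.18 and 0.10 on a second probe set), and Anp32a, a PP2A inhibitor, −0.67 and −0.32. The second tested Anp32a probe set had 0.30 and 0.04, so the probe sets differed in sign.

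The other serine/threonine phosphatases had a median of −0.19 for ACTH and 0.10 for DEX over 7 genes. Ppm1b, a magnesium-dependent phosphatase, had −0.45 for ACTH and 0.30 for DEX, and its other tested probe set −0.47 and 0.34. It was the pathway gene with the largest value in size for ACTH over DEX, −0.75 ± 0.23 (adjusted p = 0.218 in limma). Pdp2, which activates pyruvate dehydrogenase by dephosphorylation, had −0.53 for both hormones, with −0.26 and −0.34 on a second probe set. Ppp5c had 0.05 and 0.12. Protein kinase A subunits had medians of 0.09 and −0.04, with the regulatory subunits Prkar1a at 0.15 and 0.20 and Prkar1b at 0.14 and −0.08, and the catalytic subunit Prkaca at 0.09 and −0.04. A second Prkaca probe set had 0.20 and 0.07, opposite in sign for DEX.

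The groups that PP1 acts on were read the same way. Of 8 glycogen genes, 6 were positive for ACTH (median 0.14) and 5 for DEX (median 0.02). The brain-type glycogen phosphorylase Pygb had 0.59 ± 0.20 for ACTH (adjusted p = 0.307 in limma) and 0.14 for DEX, and its other probe sets had 0.37 and 0.41 for ACTH. The kinase Gsk3a had 0.21 and 0.03, and the phosphorylase kinase subunit Phkg2 0.15 and −0.02. Of 6 genes of myosin light chain regulation, 3 were positive for ACTH and 4 for DEX. The light chains Myl12b and Myl12a had 0.24 and 0.06 for ACTH and 0.04 each for DEX, and the kinase Mylk2 −0.07 and 0.01. A second Myl12a probe set had 0.09 and 0.19. Rats 1 to 4 lay wholly above rats 5 to 8 in 3 of the 45 genes (6.67%) and wholly below in 5 (11.1%), beside 8.35% and 9.94% of all probe sets.

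**Figure D5:**
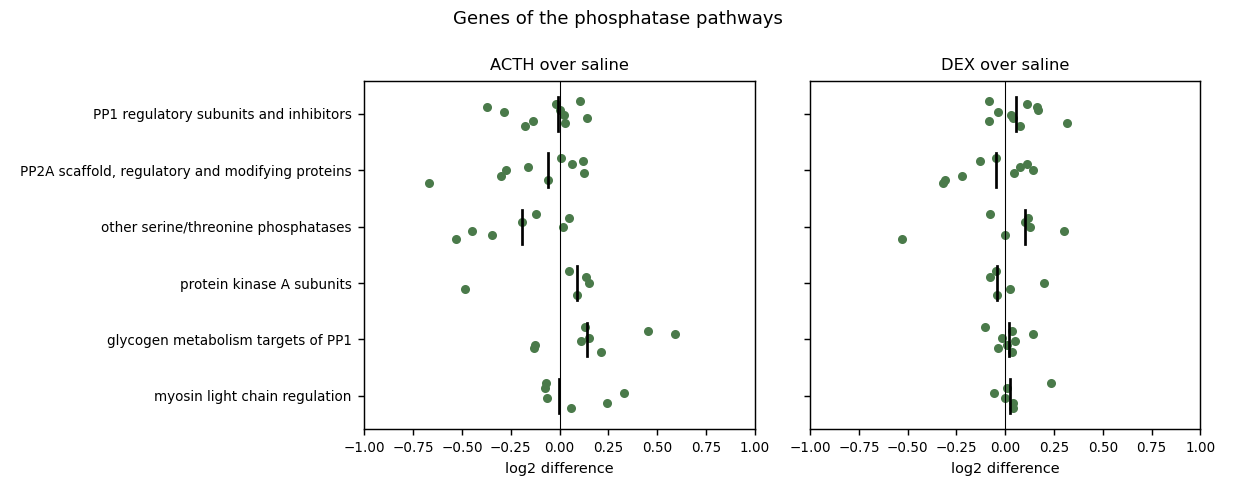
Effects of ACTH and DEX over saline (log2 difference) for the tested genes of 6 lists around the phosphatases. Points are genes and black bars list medians. No point passed the test over all probe sets, and the medians run from −0.19 to 0.14 for ACTH.

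The genes whose right minus left change over the 8 rats was most like that of Ppp1cb S78218_at were Tle4, a transcriptional corepressor (r = 0.96), the chromatin factor Morf4l2 (0.95), Tvp23b (0.94), the acyl-CoA synthetase Acsm2 (0.94) and Slc34a1 (0.94). For Ppp1cc they were the Myc antagonist Mxi1 (0.95), the ubiquitin ligase Arih2 (0.94), Acsm2 (0.93), the galactosyltransferase B3galt5 (0.93) and Slc34a1 (0.92). Acsm2 and Slc34a1 were thus in both lists. For Acsm2 the changes were −0.01 with ACTH in rat 1, −0.32 with ACTH in rat 5, 0.40 with DEX in rat 3 and 0.13 with DEX in rat 7, beside −0.19 to 0.03 with saline. Slc34a1 was named on its dimmest probe set, at a mean of 497. Its 4 other probe sets, with means of 2965 to 5622, had lower r. The brighter pair, AB013455_at and AB013455_g_at, had 0.53 and 0.64 with Ppp1cb and 0.62 and 0.77 with Ppp1cc. The other pair had −0.05 and −0.17 with Ppp1cb and −0.10 and −0.28 with Ppp1cc, so the probe sets of Slc34a1 disagree. All correlations come from the arrays that measured the phosphatases, and they carry no test.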

How the data were processed

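Values were signal intensities per probe set on a linear scale, as deposited. Per the labels' protocols, biotin-labelled cRNA was made from 5 - 8 µg of total RNA purified with Tri-Reagent and RNeasy columns. For the deposited intensity values, the software and normalization were not given in the labels or files used here. Array medians lay between 76.0 and 82.4, and arrays were not scaled again. After removal of 59 control probe sets, 16 was added, log2 was taken, and the 40% of probe sets with the lowest mean were left out, so that 5244 of 8740 were tested.

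Each probe set was fitted with limma 3.58.1 in R 4.3.3 (rat, right kidney, ACTH and DEX in the right kidney, intensity trend, 5 residual degrees of freedom), a fit tested on simulated data. Tests were two-sided, with Benjamini-Hochberg adjustment over all 5244 and a threshold of 0.05. The series design pairs the kidneys of a rat, and their deviations from group means correlated at 0.552 to 0.71 in each rat. Every group holds rats of each set, so these deviations also carry the difference between the sets of rats. No correlation between kidneys of different rats is given, so the values cannot part likeness within a rat from likeness within a set. Precision is limited by how few arrays each group has. Gene symbols came from the platform annotation, updated to RefSeq for 6985 of 7006 probe sets with 1 symbol.

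The members and lists were chosen with earlier results of these data known. A planned test of the members in saline rats is not reported, because that change enters the difference that chose them. All member probe sets are named. Of the lists, the 3 genes with the highest mean signal each are named, with any gene past the threshold. The 5 genes most like Ppp1cb and Ppp1cc were taken by Pearson correlation of changes. Alternatives covered the pseudocount, filter, normalization, rat term, left kidneys, variance trend, sets of rats and each rat left out.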

Additional observations from a re-analysis of the deposited data

How the results depend on the processing

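Filters of 0% or 20% and the variance without a trend cannot move the Ppp1cb (S78218_at) and Ppp1cc values, since each probe set is fitted alone. Those settings bear on the SE of the fit and on the genes called. For Ppp1cb, a pseudocount of 1 gave −1.62 for ACTH over DEX, and one of 64 gave −0.41, 0.84 and −1.25 for ACTH over saline, DEX over saline and ACTH over DEX. Without the replicate block, and with right kidneys only, with or without a term for the sets of rats (added after the data were seen), these 3 were −0.38, 0.35 and −0.73 for Ppp1cb and −0.35, 0.21 and −0.56 for Ppp1cc, and the left kidneys enter only the paired values. Within rats 1 to 4 Ppp1cb had −0.12 and 1.41 for the first 2, and within rats 5 to 8 −0.93 and 0.56. With a rat left out, Ppp1cb ranged from −0.90 to −0.14, 0.59 to 1.38 and −1.90 to −1.11, and Ppp1cc from −0.57 to −0.26, 0.60 to 0.95 and −1.37 to −1.02.

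Signs turned for small values, and the cause was not tested. Without the block and with right kidneys only, with or without the added term, Ppp1ca had −0.049 for DEX over saline and 0.086 for ACTH over DEX, and Ppp2cb had 0.087 for DEX over saline. Without the block, the left side is the mean of all 8 left kidneys, whatever the treatment of the rat. Saline right kidneys minus all left kidneys then gave 0.12 for Ppp1cc and −0.062 for Ppp2cb. For Ppp1cb they gave 0.019 (S78218_at) and 0.047 (S78218_g_at). DEX right kidneys minus all left kidneys gave 0.025 for Ppp2cb. After quantile normalization, right over left in saline rats was −0.055 for Ppp1ca. Within rats 1 to 4, Ppp1ca had −0.059 for ACTH over saline and −0.087 right over left in the ACTH rat, where Ppp1cb S78218_g_at had 0.10 and 0.061, and Ppp2cb had 0.060 right over left in the DEX rat. In saline rats of that set, right over left was −0.028 for Ppp1ca and 0.030 for Ppp1cc. Within rats 5 to 8, ACTH over DEX was 0.041 for Ppp1ca and 0.031 for Ppp2cb, which had −0.016 right over left with saline. With a rat left out, Ppp1ca ranged from −0.29 to 0.068 (ACTH over DEX), −0.089 to 0.27 (ACTH over saline), −0.087 to 0.27 (right over left, ACTH) and −0.040 to 0.025 (right over left, saline). Ppp1cb S78218_g_at ranged from −0.42 to 0.12 and −0.47 to 0.061 for ACTH over saline and right over left with ACTH, Ppp1cc from −0.058 to 0.073 right over left with saline, and Ppp2cb from −0.31 to 0.015 for DEX over saline, −0.25 to 0.078 for ACTH over DEX and −0.27 to 0.060 right over left with DEX.

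With no filter all 61 pathway genes on the array were tested, among them Gys2, which is outside the 45. Pathway genes called remained 0 with these exceptions. For right over left in ACTH rats, Gys2 was called with no filter and Pygl with a side term for the sets of rats added to the replicate block, 1 gene each, and leaving out a rat gave 0 to 4 genes, with 4 (Ppp1r2, Ppm1a, Ppm1b and Pygb) without rat 1 and 1 (Pygl) without rat 5. For ACTH over DEX leaving out a rat gave 0 to 2, both (Ppp1r2 and Ppm1b) without rat 1. Over all probe sets, 26 were called for ACTH over saline, against 14 without the block, 0 with right kidneys only, 10 with the term for sets, 12 after quantile normalization, 39 with the side term, and 9 (without rat 4) to 114 (without rat 5). For ACTH over DEX 30 were called, against 0 without the block or with right kidneys only, 74 with the side term, and 2 (without rat 7) to 100 (without rat 1). For right over left in ACTH rats 187 were called, against 51 without the block, 290 with the side term, and 119 (without rat 3) to 272 (without rat 1). Without the block that comparison sets ACTH right kidneys against the left kidneys of all rats. For DEX over saline 0 were called, or up to 3 without rat 3. With so few rats, the arrays limit every value, and signal over background was not analysed here.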

Other observations

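Of the pathway genes with an unadjusted p under 0.05, those not named by the rule were chosen after their values were seen, and none passed after adjustment in limma. Prkacb, a catalytic subunit of protein kinase A, had −0.48 ± 0.18 for ACTH over saline (adjusted p = 0.392) and −0.51 ± 0.21 for ACTH over DEX (adjusted p = 0.357). Pygl, the liver-type glycogen phosphorylase, had 0.45 ± 0.19 for ACTH over saline (adjusted p = 0.453). Ppp1r2, inhibitor 2 of PP1, had −0.53 ± 0.21 for ACTH over DEX (adjusted p = 0.349). For right over left in ACTH rats, Ppp2r2a of the PP2A list had −0.36 ± 0.15 (adjusted p = 0.221 in limma). In that comparison Ppp1r2 had −0.44 ± 0.15 (adjusted p = 0.123), Prkacb −0.35 ± 0.15 (adjusted p = 0.216) and Pygl 0.47 ± 0.15 (adjusted p = 0.114). Prkacb and Ppp2r2a have other probe sets, whose values are not given here. Ppp1r16b, named by the rule, had a right over left value in saline rats of 0.31 ± 0.10 (adjusted p = 1.00).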
